A study of Sus scrofa with 12 samples.

Results

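Regions bound recurrently by C/EBP-β in gene deserts were examined in pig endometrium, the inner lining of the uterus. A region was a run of peak summits, taken from 6 ChIP libraries, in which neighbouring summits lay at most 200 bp apart on chromosomes 1 to 18 and X. Members were selected on the number of libraries with a summit and on position. They were the regions with a summit in exactly 4 or 5 libraries whose midpoint was outside every protein-coding gene and more than 100 kb from every end of one. There were 722 such regions among 98994 in all, 482 with 4 libraries and 240 with 5. The tissue came from day 12 (3 libraries) and day 15 (3 libraries) of pregnancy, and every library was made with an antibody to C/EBP-β. The labels name no breed, genotype or treatment, and they do not state whether replicates were separate animals, so the p-values reflect only how far these samples vary, possibly for technical reasons. The 6 input samples were not analysed here.

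C/EBP-β belongs to the basic leucine zipper proteins, binds DNA as a dimer and takes part in stromal decidualisation, epithelial growth and inflammatory gene control in the uterus of several mammals. Gene deserts are long stretches without protein-coding genes. Some of them hold distant enhancers of developmental and growth control genes, which can act over long distances, and others hold few known regulatory elements.

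The lists differed in length, from 6556 to 70105 summits on these chromosomes, and sequencing depth is unknown because the files hold no read counts. The peak names divide the libraries into a set with a directory path (set A: day 12 replicate 1, day 15 replicates 2 and 3) and a set without one (set B: day 12 replicates 2 and 3, day 15 replicate 1). The names in day 15 replicates 2 and 3 hold 1 common sample code. The protein is left out of the sample part of the name in day 12 replicate 1, and also in day 15 replicate 3. Of the 280 members with a summit in both libraries of the shared code, 2 had it at the identical base.

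Recurrent regions rarely lacked a summit of the longest lists, in deserts as elsewhere. A summit was present in 33.9%, 80.3% and 98.9% of the 722 regions in day 12 replicates 1 to 3, and in 99.0%, 69.4% and 51.7% in day 15 replicates 1 to 3. The high values were those of the 3 libraries of set B on both days, and the lowest was that of the shortest list. Set B also held the 3 longest lists, so set and list length cannot be told apart. The mean share was 71.1% ± 33.5 on day 12 and 73.4% ± 23.9 on day 15 (SD, n = 3 each, two-sided exact permutation p = 0.9, adjusted 1 over 5 tests by Benjamini-Hochberg, where 3 against 3 cannot go below 0.1). Presence was the value that the rule selected on. A summit in 4 or 5 of the 6 libraries sets the total of the 6 shares, so they depend on each other. The p-values on presence therefore describe these shares and are no independent test of the days. The difference of 2.31 percentage points was far below the spread between replicates. It turned to -16.3 points when day 12 replicate 1 was left out and to -10.5 when day 15 replicate 1 was. Leaving out replicates 2 and 3 gave 6.95 and 16.2 points for day 12 and 4.29 and 13.2 points for day 15. Within set A it was 26.6 points and within the other set 9.42 points (permuted exactly within sets, p = 0.222, smallest possible 0.111). Within each set the day 15 lists were also longer than those of day 12, so day and list length cannot be told apart there. All 3 libraries of set B were present in 78.5% of the members, against 72.4% of the 8096 other regions with 4 or 5 libraries. By library, a summit was present in 36.6%, 77.6% and 95.4% of those other regions in day 12 replicates 1 to 3. In day 15 replicates 1 to 3 it was present in 97.3%, 76.7% and 52.5% of them.

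**Figure D1:**
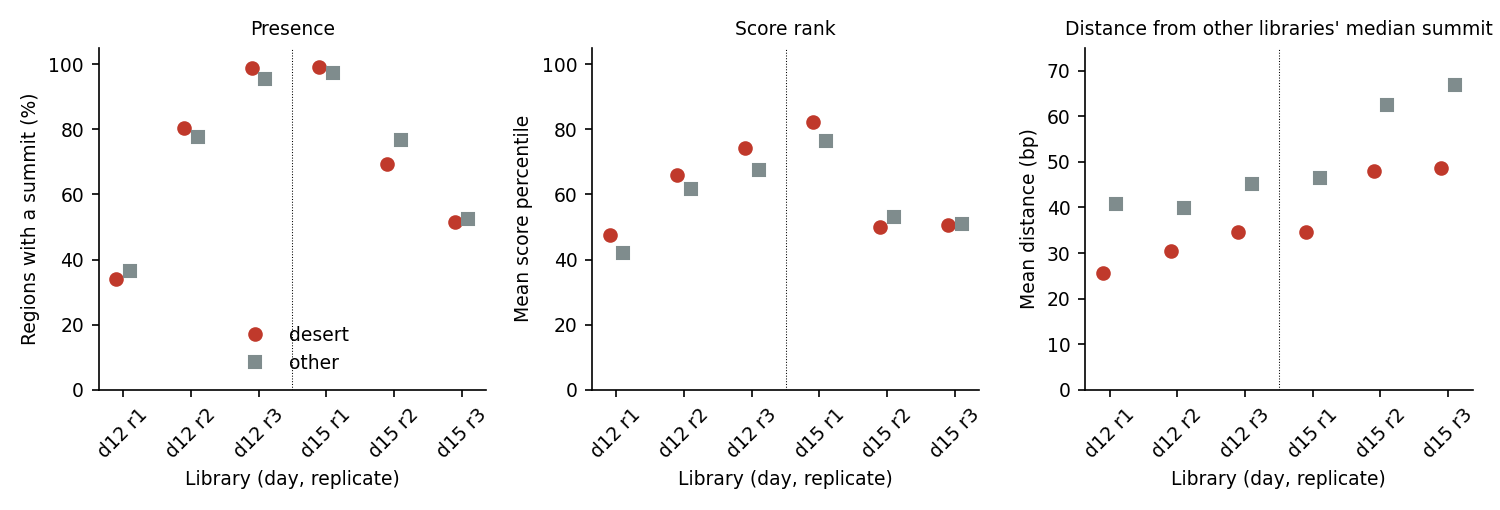
Share of regions with a summit (%), mean score percentile within the library, and mean distance (bp) of a summit from the median summit of the other libraries, each plotted by library for the 722 desert regions (red circles) and the 8096 other regions in 4 or 5 libraries (grey squares); each point is 1 library and has no error bar. The distance is shorter in deserts in all 6 libraries, whereas presence and percentile differ more between libraries than between deserts and other places.

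The shortest list was the one most often missing, but the pairs of missing libraries did not follow list length alone. Of the 240 regions with 5 libraries, 138 lacked day 12 replicate 1, 59 lacked day 15 replicate 3, 41 lacked day 15 replicate 2 and 2 lacked another library. The first 3 shares were 57.5%, 24.6% and 17.1%, against 49.8%, 28.0% and 8.18% of the 2922 other regions with 5 libraries. Day 12 replicate 2 was missing in 0.833% of these members and in 9.99% of those other regions. Of the 482 regions with 4 libraries, 157 lacked day 12 replicate 1 and day 15 replicate 3, 135 lacked day 12 replicates 1 and 2, and 128 lacked day 15 replicates 2 and 3. These shares of 32.6%, 28.0% and 26.6% lay near those in the 5174 other regions with 4 libraries (33.7%, 25.8% and 23.6%). Only 44 lacked day 12 replicate 1 and day 15 replicate 2, although the latter list (16519 summits) is shorter than that of day 12 replicate 2 (33274 summits). A split of 3 libraries of day 12 and 1 of day 15 was found in 131 members (27.2%), and over all regions with 4 libraries its share was 24.4%. The reverse split was found in 136 members (28.2%), against 30.4% of all regions with 4 libraries. Among the members with 5 libraries, 140 (58.3%) had all 3 of day 15 and 2 of day 12, against 61.5% of all regions with 5 libraries, and 100 (41.7%) had the opposite, against 38.5%. All 4 shares lay near those of regions everywhere. The shares compared next were again tied by the number of libraries required, in members and in other regions alike. After the share in other regions was subtracted in each library, the days differed by -3.30 points (exact permutation p = 0.5, adjusted 0.833). That difference became 7.53 points against only the 2067 regions outside genes and 2 to 100 kb from a gene end (exact permutation p = 0.3), a comparison added after the data were seen.

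A missing library seldom had a summit close by. For the 1204 absences in members, the nearest summit of the absent library lay at a median distance of 110 kb, and 14 absences (1.16%), in 12 regions, had one within 1 kb. In the other regions with 4 or 5 libraries, 7.74% of 13270 absences had one within 1 kb, and the median was 32.4 kb. These pooled values depend on which lists were absent. In members, 477 absences were of day 12 replicate 1, the shortest list, with a median of 173 kb. In the longest lists, day 12 replicate 3 and day 15 replicate 1, 2 of 8 and 1 of 7 absences in members had a summit within 1 kb. In other regions the shares for these lists were 37.7% of 369 and 71.2% of 222. The members with such a neighbour included regions nearest to FOXO1, JAG1 and KLF5.

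The scores of desert regions spread over much of each list but did not include its highest score. The rule left out the regions in all 6 libraries, and the highest scores of the other regions in 4 or 5 libraries were not compared here. In day 12 replicate 1 the highest member score was 34.6, where the deposited list reached 169. In day 15 replicate 1 it was 244, where the list reached 497, and members stayed below the top in the other libraries too. The score deposited by the authors is the −log10 of p or of q, and it was ranked within each library, so that a percentile near 100 marks the highest scores. The mean percentile of member summits was 47.4, 65.9 and 74.3 in day 12 replicates 1 to 3, and 82.1, 50.1 and 50.7 in day 15 replicates 1 to 3. Libraries of set B, which are also those with the longest lists, were again the high ones on both days, and the ranges of the days overlapped. The means were 62.5 ± 13.7 on day 12 and 61.0 ± 18.3 on day 15 (SD, n = 3 each), a difference of -1.55 (two-sided exact permutation p = 1, adjusted 1). Single libraries turned its direction, to 0.15 and 4.31 without day 12 replicates 2 and 3 and to 3.88 and 3.58 without day 15 replicates 2 and 3, and leaving out replicate 1 of day 12 or of day 15 gave -9.11 and -12.1. Day 15 was higher within both sets, by 3.01 in set A and by 12.0 in the other set (permuted exactly within sets, p = 0.111, the smallest these sets allow). The day 15 lists were also the longer ones within each set. They held 16519 and 11954 summits against 6556 in set A, and 70105 against 33274 and 57694 in set B. Day and list length therefore cannot be told apart there.

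Compared with other regions in 4 or 5 libraries, deserts had higher percentiles in 4 of 6 libraries. The difference was 5.35, 4.32 and 6.70 in day 12 replicates 1 to 3, 5.67 in day 15 replicate 1, and -2.86 and -0.15 in day 15 replicates 2 and 3. The 2 lower libraries were the pair with the same sample code. Its mean of 3.17 ± 3.80 (SD, n = 6) did not exceed the spread (two-sided exact sign-flip permutation p = 0.125, adjusted 0.312, smallest possible 0.03125). Against regions outside genes and 2 to 100 kb from an end the mean was 0.41 (exact permutation p = 0.719), and with lists cut to 6556 summits each it was -0.43 (exact permutation p = 0.719).

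Summits of different libraries lay closer together in deserts. In each library, the distance from its summit to the median summit of the other libraries averaged 25.5, 30.4 and 34.6 bp on day 12 and 34.6, 47.9 and 48.7 bp on day 15, in replicate order. In the other regions it averaged 40.7, 39.9 and 45.1 bp on day 12 and 46.4, 62.4 and 66.8 bp on day 15. The desert value was lower in 6 of 6 libraries, with differences of -9.47 to -18.03 bp. The mean difference was -13.3 bp, with the smallest p that 6 libraries allow (two-sided exact sign-flip permutation p = 0.03125, adjusted 0.156 over 5 tests). Each distance is measured from the summits of the other libraries in the same regions. The 6 differences therefore depend on each other, here and in the comparison below, and the p-value does not measure replication. With smallest possible p-values of 0.03125 and 0.1, no adjusted p over the 5 tests could fall below 0.05. The other regions include those near gene ends, whose median width was 137 bp, against 92 bp inside genes, 76 bp outside genes 2 to 100 kb from an end, and 70 bp in deserts. Against that intergenic class alone, the mean difference was -4.84 bp, negative in 6 of 6 libraries but only -0.249 bp in day 15 replicate 1 (exact permutation p = 0.03125, adjusted 0.156). Of the members, 244 (33.8%) were at most 50 bp wide and 51 (7.06%) over 200 bp, against 23.7% and 16.7% of the other regions. All 722 members had 1 summit per library, as did 8055 of the 8096 other regions (99.5%).

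Recurrence fell off little with distance once the vicinity of genes was left. Regions in 4 or 5 libraries made up 15.7% of all regions up to 2 kb from a gene end, 8.28% at 10 to 50 kb, 7.43% at 100 to 200 kb, 7.07% at 200 to 500 kb and 6.99% beyond 500 kb. Regions in all 6 libraries made up 6.78%, 2.34%, 2.02%, 1.94% and 2.51% of the same classes. These shares describe the classes and were not tested.

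**Figure D2:**
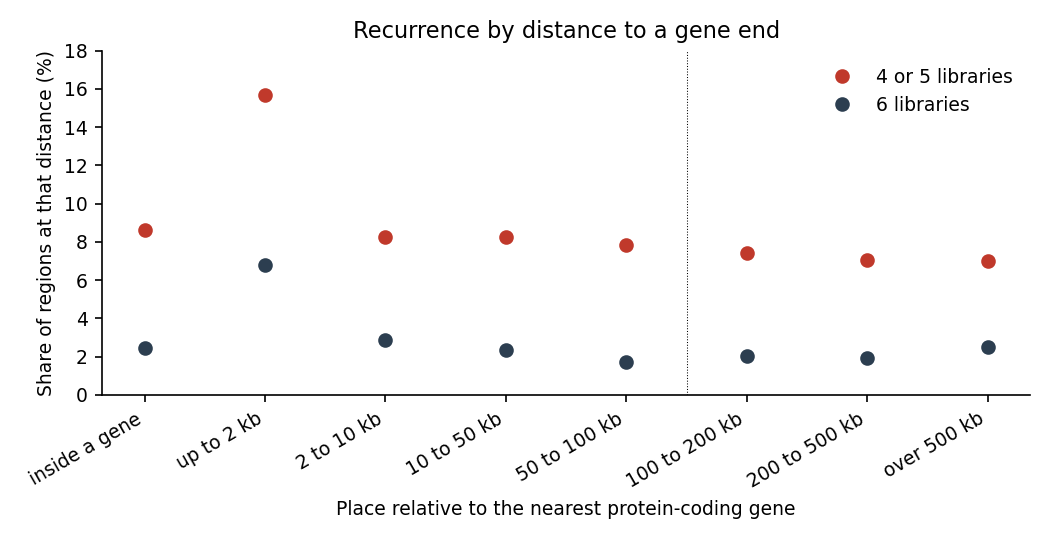
Share of all regions at a given place (%) that had a summit in 4 or 5 libraries (red) or in 6 (dark), by distance from the nearest protein-coding gene end, with regions inside genes at the left and deserts to the right of the dotted line. The share in 4 or 5 libraries is 15.7% up to 2 kb from a gene end and between 6.99% and 7.43% in deserts.

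Members lay between 100 and 1604 kb from the nearest gene end, with a median of 213 kb, and 89 of them lay more than 500 kb away. Distance made little difference among them: the median of the mean percentile was 68.1 for the 338 members at 100 to 200 kb, 67.8 for the 295 at 200 to 500 kb and 65.2 for the 89 beyond. Of the members, 184 (25.5%) had their midpoint inside a long non-coding RNA gene of the annotation, and 25.3% of the desert regions with 4 libraries, 26.2% of those with 5 and 24.6% of those with 1 library lay in a gene of a non-coding kind or a pseudogene. The members closest to the limit of 100 kb lay 100.1 kb from ARNTL (also called BMAL1), a clock factor, 100.3 kb from LOC110257498 and 100.3 kb from ADAMTS9. Just outside it were regions 99.7 kb from GAS1, 99.1 kb from LOC100738003 and 99.1 kb from C14H10orf90. The mean percentiles were 73.0, 85.7 and 57.8 for the first trio and 40.9, 57.4 and 34.3 for the second.

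The highest-ranked member with 4 libraries lay between COG6 and FOXO1, at chr11:15053291-15053319. FOXO1 is a forkhead transcription factor that partners C/EBP-β in decidualising human endometrial stroma. The region was 264 kb from FOXO1 and 315 kb from COG6. Its percentiles were 92.9 and 98.6 in day 12 replicates 1 and 2 and 98.7 and 97.4 in day 15 replicates 2 and 3. It had no summit in day 12 replicate 3 and day 15 replicate 1, which are the longest lists. Those 2 libraries had summits 539 and 526 bp to the left of the region, at 15052752 and 15052765, with scores of 113 and 183 and percentiles of 99.7 and 99.5. So all 6 libraries had a high summit within 1 kb, at 2 positions, and the count of 4 rests on the joining distance. The other 3 members of the same interval, 380 to 429 kb from FOXO1, had mean percentiles of 54.4, 79.2 and 71.6.

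The CEBPB gene itself bordered a desert with 2 members, on the side of PTPN1, which encodes a tyrosine phosphatase. The first, at chr17:51845876-51845890, lay 122 kb from CEBPB inside the long non-coding RNA gene LOC110257431. Its percentiles were 86.0, 92.7 and 98.1 in day 12 replicates 1 to 3 and 88.6 in day 15 replicate 1, and day 15 replicates 2 and 3 had no summit there. Summits of the 4 libraries fell within 15 bp. The second, at chr17:51893415-51893500, lay 170 kb from CEBPB and had a mean percentile of 69.7 over 4 libraries. Day 15 replicate 3, at 30.7, was its low one.

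The highest-ranked member with 5 libraries lay 124 kb from BTG1, an antiproliferative gene, at chr5:90690874-90690964. Its percentiles were 98.5 and 98.7 in day 12 replicates 2 and 3 and 99.6, 90.5 and 95.1 in day 15 replicates 1 to 3, and day 12 replicate 1 had no summit there. All 5 values were above percentile 90, which 3 of the 722 members and 23 of the 8096 other regions reached in every library with a summit. Another such member, at chr1:167412734-167412745, lay 114 kb from RPLP1, a ribosomal stalk protein gene, and 396 kb from TLE3, which encodes a Groucho family corepressor. Its 5 summits fell within 12 bp, with percentiles of 96.2, 98.5 and 98.5 on day 12 and 97.9 and 90.5 in day 15 replicates 1 and 3.

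The region 129 kb from ADAMTS5, an aggrecanase gene, had 76.8 and 96.2 in day 12 replicates 2 and 3 and 95.2, 97.1 and 96.5 on day 15. Here day 12 replicate 2 was the low library. At 183 kb from TMEM132C, the percentiles were 69.2, 95.8 and 96.6 on day 12 and 99.8 and 97.6 in day 15 replicates 1 and 2. Its score of 244 in day 15 replicate 1 was the highest of any member in that library. The remaining ones of the 8 highest with 5 libraries lay nearest to TMEM196, RBMS1, ASB3 and ZFAT, and their mean percentiles ran from 89.99 to 90.92. The mean percentile exceeded 90 in 16 members (2.22%) and in 217 of the other regions (2.68%). The lowest member, at chr10:22080876-22081004 between LOC110255652 and NR5A2, averaged 12.4.

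**Figure D3:**
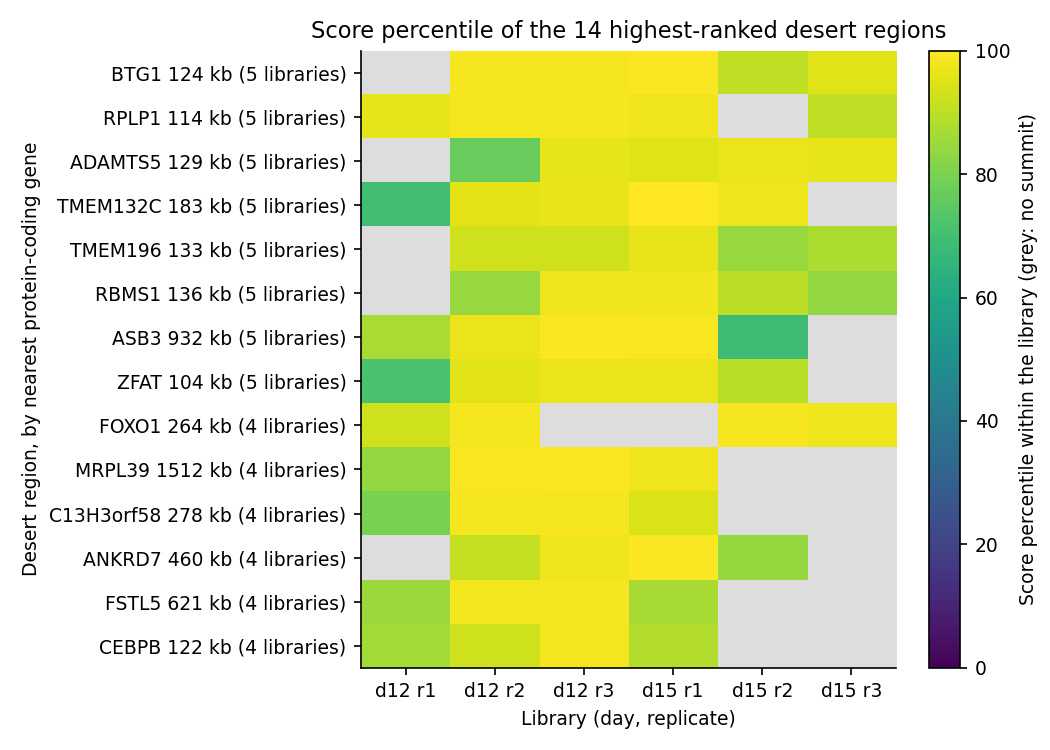
Score percentile within each library (colour, 0 to 100; grey marks no summit) of the 8 highest-ranked desert regions with 5 libraries and the 6 highest with 4, each named by its nearest protein-coding gene and the distance in kb. Grey cells fall in set A, day 12 replicate 1 and day 15 replicates 2 and 3, except in the FOXO1 row, where day 12 replicate 3 and day 15 replicate 1 are grey.

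Members with all 3 libraries of day 12 and 1 of day 15 were led by a region in a desert between NCAM2, a neural adhesion gene, and MRPL39. It lay at chr13:187636944-187636966, 1512 kb from the nearer gene, the second most remote of all members. Its percentiles were 83.6, 99.0 and 99.4 on day 12 and 97.5 in day 15 replicate 1. Next came regions 278 kb from C13H3orf58 and 621 kb from FSTL5, with mean percentiles of 93.0 and 92.1, and the CEBPB region above. In all 4, the missing libraries were day 15 replicates 2 and 3, which share a sample code.

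Members with the reverse split were led by a region in LOC102158243, a long non-coding RNA gene 653 kb from ZNF608, at chr2:128809734-128809833. It had percentiles of 91.9 in day 12 replicate 3 and 89.5, 88.8 and 92.2 on day 15. A region 114 kb from IRF8, a myeloid and interferon-related transcription factor gene, and 329 kb from FOXF1 followed with 86.3 in day 12 replicate 3 and 92.4, 79.7 and 80.6 on day 15. Others lay 324 kb from RGMA, with a mean percentile of 83.5, and 112 kb from ZEB1, a repressor of epithelial genes, with 82.7. In all 4, day 12 replicates 1 and 2 were the missing ones. No region was tested between days, because the rule fixed the number of libraries and the lists differed in length.

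The most remote member, at chr6:124286744-124286780, lay 1604 kb from PIK3C3 and 2906 kb from CELF4. It had percentiles of 58.5, 53.1 and 73.8 on day 12 and 4.86 and 74.4 in day 15 replicates 1 and 3, so the longest list gave the lowest rank. Its 5 summits nevertheless fell within 37 bp. A region 1445 kb from ACVR2A, an activin receptor gene, had 98.5 and 91.4 in day 12 replicates 2 and 3 and 30.7, 79.1 and 92.2 on day 15, with day 15 replicate 1 again the low one. Regions 1403 kb from PCDH7 and 1212 kb from LRFN5 had mean percentiles of 77.6 and 70.0.

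Most intervals held no member. The annotation left 1295 intervals in which some sequence lay more than 100 kb from both flanking genes, 569 Mb of such sequence in all, and 375 of them (29.0%) held a member, 218 of these exactly 1. The mean was 1.26 members per Mb of desert. Joined at distances up to 100 kb, the members formed 512 groups, of which 388 were single regions and 20 held 4 or more.

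KLF4, a zinc finger factor of epithelial differentiation, bordered the interval with most members. Between KLF4 and ACTL7B lay 10 members, 9.37 per Mb of desert, 7 of them within 112 kb of each other at 110 to 222 kb from KLF4. Their mean percentiles ranged from 27.2 at chr1:248741734-248741926 to 77.5 at chr1:248831261-248831324. The highest of the interval, 86.7, was the region farthest from KLF4, at 997 kb.

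MYC, the growth-promoting transcription factor gene, flanked more members than any other gene, 14 in all. Of these, 9 lay on the side of LOC100151870, at 405 to 1377 kb from MYC, and 5 on the side of FAM84B, at 274 to 515 kb. The 5 spanned 240 kb and had mean percentiles of 81.2, 54.5, 76.5, 85.9 and 80.3. The 2 deserts next to MYC came to 2.296 Mb with 6.10 members per Mb, and they held 120 desert regions of any number of libraries, 5 of them in all 6.

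The other genes with most members were MCTP2 with 11, ACTL7B with 10 and BTBD3, LOC100151870 and TRIB2 with 9. TRIB2 encodes a pseudokinase known to promote the degradation of C/EBP-α. Between TRIB2 and LPIN1, a phosphatidate phosphatase gene, lay 8 of its members, 14.7 per Mb of desert, with mean percentiles from 40.4 to 82.6. ACVR2A, ADAMTS5 and AGTR2 completed the 10 genes first in order, with 8 each and ties taken alphabetically. ACVR2A had 2.63 members per Mb in a desert of 3.04 Mb, so a high count there went with a long interval.

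**Figure D4:**
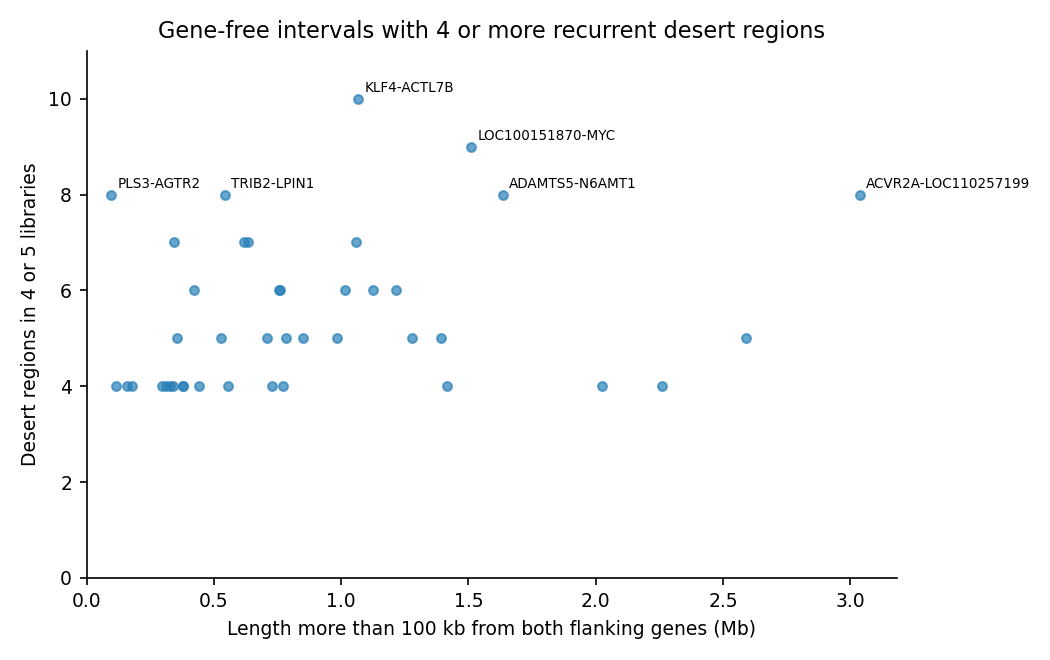
Number of recurrent desert regions in the 41 gene-free intervals that held 4 or more, against the length (Mb) that lay more than 100 kb from both flanking genes; each point is 1 interval, and those with 8 or more are named by their flanking genes. PLS3-AGTR2 stands at the far left with 8 regions, and KLF4-ACTL7B is highest with 10.

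Among the intervals with 4 or more members, the densest was on chromosome X between PLS3, an actin-bundling protein gene, and AGTR2, an angiotensin receptor gene. Its desert part was only 0.096 Mb long and held 8 members within 33.4 kb, from chrX:95092791-95092997 to chrX:95126152-95126223. They were 8 of the 15 members on chromosome X. All 8 had a summit in the same 5 libraries, and day 12 replicate 1 had no summit anywhere between the 2 genes, against 16 and 18 in the other day 12 libraries and 22, 16 and 15 on day 15. The fifth of the 8 in order had percentiles of 89.96 and 95.6 in day 12 replicates 2 and 3 and 94.7, 90.1 and 44.4 in day 15 replicates 1 to 3. In each of the 8, day 15 replicate 3 was the lowest library, between 5.31 and 62.3.

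Several of these regions recurred at 1 distance, in 2 interleaved series. Among the 8 members, 6 pairs lay between 6 and 7.5 kb apart, a window chosen after the positions were seen, and their distances were all between 6.58 and 6.73 kb (median 6.65 kb, SD 0.06). With the 5 further regions of 4 or more libraries, which lay 55.2 to 75.2 kb from PLS3 and so outside the desert, 9 such pairs had distances of 6.58 to 6.81 kb. In human and mouse, the tandem repeat array DXZ4 lies between these same genes on the X chromosome. Whether the pig sequence repeats at this spacing was not tested here, since no genome sequence was used, and reads of repeated copies cannot always be assigned to 1 copy. Whether the 8 regions are independent observations is not known.

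**Figure D5:**
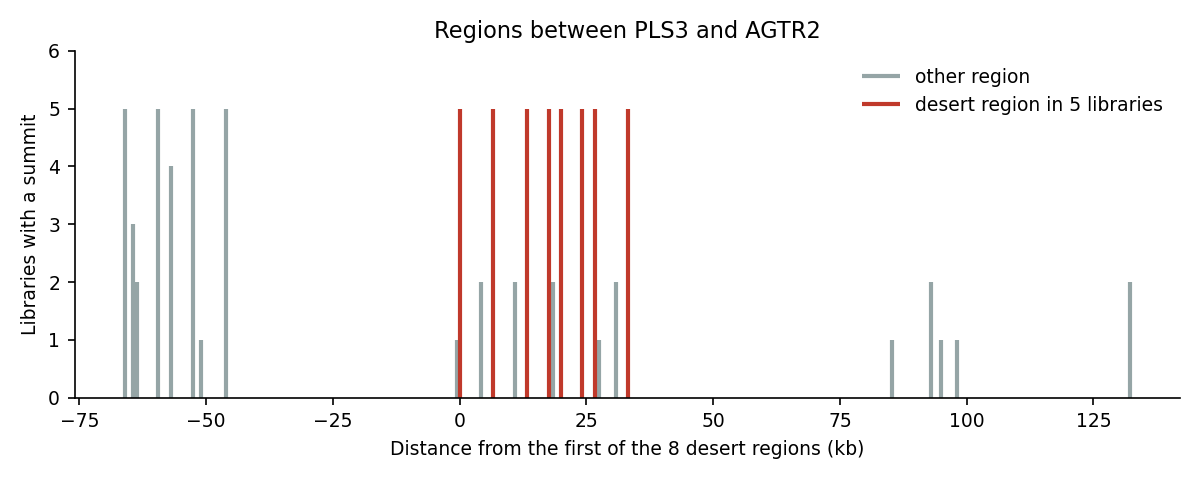
All regions between PLS3 and AGTR2, drawn as lines at their distance (kb) from the first of the 8 desert members, with the number of libraries that had a summit as height; members are red and other regions grey. Pairs of members recur at 6.58 to 6.73 kb, and 5 further regions with 4 or 5 libraries lie 46 to 66 kb to the left of the first member.

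The next groups in size were near NUAK1, a kinase gene, and KLF4, with 7 members each. The NUAK1 group spanned 118 kb at chr5:14342023-14459891, with 5 members in the non-coding gene LOC106507478 and 2 in LOC102160723. Its mean percentiles ranged from 45.4 to 85.7, and 2 of its members had 5 libraries.

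Among 5 gene lists, developmental transcription factors flanked 89 members (12.3%), through 43 of 142 listed genes. They flanked 10.6% of the desert regions of 1 library, 12.99% of those of 2 or 3 and 11.2% of those of all 6, and 10.2% of the desert length, so the members did not stand apart. After KLF4, MSX2 (a homeobox gene) flanked 7 members, at 132 to 379 kb, and GLI3, SOX4 and ZNF503 flanked 6 each, followed by DACH1 with 4. Near MSX2, the region at chr16:49903384-49903432 had percentiles of 65.7, 93.7 and 97.8 on day 12 and 94.99 in day 15 replicate 1. The low one was again the shortest list. The 6 next to SOX4 were of middle rank, with mean percentiles of 56.5 to 68.8.

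Genes of implantation and endometrial function flanked 30 members (4.16%). They flanked 3.66% of the desert regions of 1 library, 3.86% of those of 2 or 3, 5.37% of those of all 6 and 3.80% of all 9996. Their share of the desert length was 1.39%, below their share in every class of desert regions, so the members did not stand apart. FGF9, a growth factor gene, flanked 5, FOXO1 4, the morphogen gene BMP4 3, and BMP2, DKK1 and FGF10 2 each. The best of the FGF9 regions, at chr11:2187498-2187524 and 606 kb from the gene, had percentiles of 20.3, 96.3 and 98.5 on day 12 and 99.2 in day 15 replicate 1. The best of the BMP2 regions, 120 kb from the gene at chr17:15630802-15630892, had 65.9 and 92.3 in day 12 replicates 2 and 3 and 96.9, 65.5 and 66.0 on day 15. In the C/EBP and bZIP list, CEBPB flanked 2 members and JUN 1, together 0.416% of the members. The list flanked 0.476% of the desert regions of 1 library, 0.472% of those of 2 or 3 and 1.46% of those of all 6 (3 of 205). It flanked 0.490% of all desert regions and 0.0645% of the desert length.

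Neuronal adhesion and synapse genes flanked 67 members (9.28%), against 13.5% of the desert regions of 1 library, 12.3% of those of 2 or 3, 9.27% of those of all 6 and 26.1% of the desert length. ROBO1 and SLITRK1 flanked 5 each, EPHA7 4, and ADGRL2, CADM1 and CTNNA2 3 each. SLITRK1 was 2405 to 2607 kb away from its 5. A list of 30 solute carrier, mitochondrial and housekeeping genes, 28 of them matched, flanked 0 of the 9996 desert regions. Genes of such kinds outside that list did flank members, as RPLP1 above and RPS24, a ribosomal protein gene that flanked 4. The lists were compared by counts only and were not tested.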

How the data were processed

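Chromatin was immunoprecipitated from fixed, sonicated tissue, per the labels' protocols. Bowtie2 2.3.5.1, SAMtools 1.9, MACS2 2.1.2 and the build susScr11 come from the submitters' processing notes. The calling threshold, use of input and treatment of duplicates are not stated there or in the labels. The deposited score, the −log10 of p or of q, grows with depth, so it was only ranked within a library. Depth is unknown and gives no interval. Of 198341 deposited summits, 196102 lay on the chromosomes used. RefSeq positions of 19484 protein-coding genes on Sscrofa11.1 were used. No genome sequence was used, so the planned motif search was not run and no sequence is shown. Members and gene lists (405 entries, 396 matched) were chosen with earlier results of these data known.

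Values per library were compared with exact permutation tests (Python 3.11.15, numpy 2.4.6, pandas 2.3.3), adjusted over 5 tests by Benjamini-Hochberg with a threshold of 0.05. Regions were named by rank: the 8 highest with 5 libraries, 6 with 4, 4 for each split of 3 against 1, the 5 most remote, the 3 nearest the limit on either side and the 3 largest groups. Genes named were those flanking 5 or more members, up to 10, and up to 6 from each list. Further regions beside a named gene, and those with a summit of a missing library within 1 kb, were chosen after their values were seen. Alternatives were joining within 100 or 500 bp, scores of at least 2 or 5, deserts of 50 or 200 kb or from genes of any kind, equal lists, each replicate left out, a replicate block, values within sets and medians. Regions of exactly 4 or 5 libraries and the intergenic comparison were chosen after seeing the data. On simulated lists (193365 regions), the rule recovered 399 of 400 regions planted so as to meet it. That checks the code and says nothing on how reliable the real members are.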

Additional observations from a re-analysis of the deposited data

How the results depend on the processing

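The number of members was 1152 with deserts of 50 kb, 384 with 200 kb, 272 with 100 kb from genes of any kind, 201 with equal lists, and 452 to 784 when 1 library was left out (453 without day 12 replicate 3, 452 without day 15 replicate 1). The day difference in presence was -1.83 points with joining within 100 bp, -4.22 with a score of at least 5, -11.6 with equal lists, and -16.3 to 16.2 when 1 library was left out. The day difference in percentile was 7.51 within sets, 0.42 with exactly 5 libraries and -12.1 to 4.31 when 1 library was left out. The desert difference in percentile was -0.27 with a score of at least 5 and -0.43 with equal lists. The day difference in presence after subtracting other regions was 6.62 with equal lists and 7.53 against intergenic regions. The distance between summits was shorter in deserts under all 18 alternatives run (-20.6 to -4.84 bp). With a replicate block over the 3 pairs, the day differences stayed at -1.55, 2.31 and -3.30 (exact sign-flip p = 1, 1 and 0.75). Same-numbered libraries correlated at -0.47, -0.12 and -0.22 in their deviations from the day means, and 0 of 6 libraries correlated best with its own number. Each same-numbered pair joined a library of set A with 1 of set B, so these values cannot show whether the numbers pair the samples. No adjusted p fell below 0.05 in any setting run, but the smallest p-values these sample sizes allow could not have given one. Permuting 3 libraries a day cannot give a p below 0.1. Absence of a summit at unknown depth does not show absence of binding.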

Other observations

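Of 169 intervals with at least 1 Mb of desert, 71 held no member, a smaller share than among all intervals, where 920 of 1295 held none. The longest of these lay between PCDH20, a protocadherin gene, and LOC106506534 on chromosome 11, with 3.599 Mb of desert and 6 regions of any number of libraries. The desert between SLITRK5 and GPC5 (2.79 Mb) held 37 regions and none in 4 or 5 libraries, and that between PCDH9 and KLHL1 (2.38 Mb) held no region at all. Per Mb of desert, chromosome 5 had 2.33 members, chromosome 18 2.18 and chromosome 10 2.096, against 0.418 on chromosome X, where 8 of 15 lay between PLS3 and AGTR2, 0.692 on chromosome 8 and 0.800 on chromosome 2. These densities were not tested, and the mappable share of each desert was not measured here.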
